A study of Mus musculus with 2 samples.

Results

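The second chromosome of the mouse carries a dense array of microRNA hairpins inside an intron of Sfmbt2, a Polycomb group gene. The members described here are the GENCODE M21 microRNA genes that lie within Sfmbt2 on its strand and have a symbol starting with Mir297, Mir466, Mir467 or Mir669. They number 71 of the 2202 microRNA genes in the tables, and the rule itself uses position, strand and symbol but no measured value. RNA under 30 bases was sequenced from the whole heart tissue of B6CASTF1/J females, 2 months old, the hybrid offspring of a C57BL/6J and a CAST/EiJ parent. The labels give 1 group with 2 libraries, numbered as biological replicates from different females but carrying the same donor label. Whether they came from separate animals is not settled by this, so p-values measure only how these libraries differ, which may be technical. No treatment or other genotype was compared, and reads were not separated by parental allele.

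MicroRNAs are cut from hairpin transcripts and guide Argonaute proteins to messenger RNAs that pair with their seed, the bases near the 5′ end. The Sfmbt2 array is a rodent-specific expansion and is best known from the placenta, where Sfmbt2 is imprinted and expressed from the paternal allele. Among its products, miR-669a has been described as restraining MyoD in cardiac progenitor cells, miR-467 as targeting the transcript of thrombospondin 1, miR-466l as pairing with the transcript of Il10 and miR-466h as promoting apoptosis in cultured cells. Members arose as copies of a repeated unit, so many carry the same bases.

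The libraries held 2424441 and 2770301 reads placed once on a microRNA gene, on its own strand, and CPM here means counts scaled to that total set at 1000000. Reads that mapped to several places, 49.5% of all reads in replicate 1 and 42.7% in replicate 2, were counted for no gene. A count of 0 therefore allows up to 1.24 CPM (replicate 1) or 1.08 CPM (replicate 2) of reads placed once, a limit for counting error only. All 3 markers of cardiac muscle were present (Mir208a, Mir208b and Mir499 together at 5980 and 8546 CPM), as were 3 of 3 for endothelium, 2 of 2 for smooth muscle, 2 of 2 for red cells and 4 of 4 for leukocytes. Of 10 matched genes of the stem cell and early embryo list none had 10 counts in each library, the sums being 9.90 and 10.5 CPM, with Mir290a, Mir295 and Mir367 at 0. Tissue libraries do not separate fewer cells of a type from less RNA per cell.

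The 71 hairpins span 51.6 kb of mm10, on the plus strand of chromosome 2 from 10466663 to 10518279. All lie in 1 intron of 62.5 kb, which is intron 10 of the transcript Sfmbt2-201 and intron 11 of Sfmbt2-205, and none overlaps an exon of Sfmbt2. They comprise 29 Mir669, 23 Mir466, 14 Mir467 and 5 Mir297 genes, 73 to 127 bases long. The middle of the array repeats: the 10 Mir467a copies follow each other at a median spacing of 2.46 kb (2.41 to 4.88 kb). The 71 genes hold 53 distinct hairpin sequences, and 24 genes are identical to another member over the whole hairpin. The longest exact stretch that a member had in common with another hairpin had a median of 73 bases (16 to 113). For 69 members that other hairpin lay in Sfmbt2 too, and for Mir669e and Mir466l it lay elsewhere.

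The members also share a base composition that the rule did not use. Their median GC content was 36.1% (31.5 to 43.4), against 50.8% over all 2202 hairpins. A median of 70.1% of their bases (50.4 to 83.0) lay in a TG, GT, CA or AC step, against 45.9% over all hairpins. The 48 other microRNA genes in Sfmbt2, which carry only provisional Gm symbols, had 38.9% and 59.7%. The trait is not particular to the array. The 10 genes of the same symbol families outside Sfmbt2 had medians of 38.9% GC and 74.8% of bases in such steps. A tandem cluster of the X chromosome shared the low GC content (37.0%) but not the steps, with 47.8% of bases in them.

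Most of the array had no countable reads in the heart. A total of 61 members had 0 counts in both libraries, 4 more had a few counts, and 6 had at least 10 counts in both libraries, the minimum used here to call a gene detected. These 6 were Mir467d, Mir467e, Mir467c, Mir669c, Mir669o and Mir669l. They are 8.45% of the members, while 13.9% of all microRNA genes in the tables were detected. The family with the most counts was Mir467, with 3 of 14 genes detected and 908 ± 263 CPM in sum (SD, n = 2). Mir669 had 3 of 29 genes detected and 145 ± 36.2 CPM. None of the 23 Mir466 genes was detected, with 0 counts in replicate 1 and 1 in replicate 2, and none of the 5 Mir297 genes, with 2 and 0 counts.

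**Figure D1:**
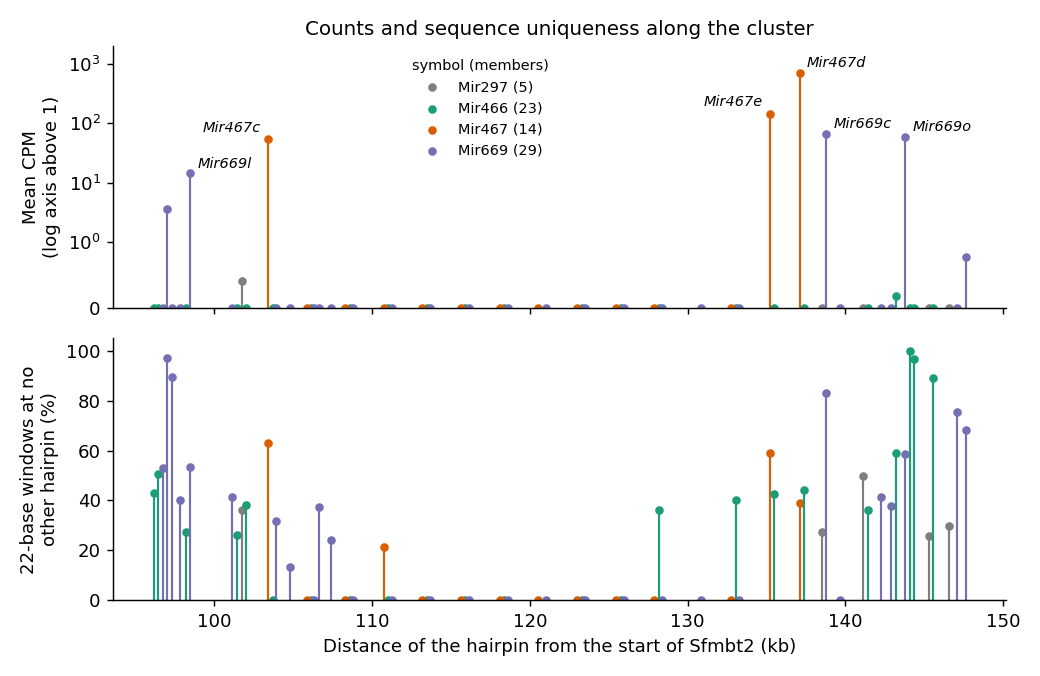
Mean CPM over 2 libraries (top, logarithmic above 1) and the percent of 22-base windows found at no other annotated hairpin (bottom) for each of the 71 members, against distance from the start of Sfmbt2 in kb; each stem is 1 hairpin, coloured by symbol family. The 6 detected members flank a middle stretch of 38 members with no count and mostly no window of their own. The borders of that stretch were set at detected members.

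Mir467d had the most reads placed once of any member, with 1298 counts in replicate 1 and 2448 in replicate 2, or 535 and 884 CPM. Members identical to another hairpin, such as the Mir467a copies, cannot be ranked by such counts. Its hairpin lies at 10507630 to 10507714. Its mean of 710 ± 246 CPM (SD, n = 2) ranked 81 among all microRNA genes and exceeded 73.5% of the 306 detected genes. Mir467e, at 10505721 to 10505807 and next but one upstream among the members, had 366 and 381 counts, or 151 and 138 CPM. Mir467c, at 10473931 to 10474027 on the far side of the repeated middle, had 87 and 201 counts, or 35.9 and 72.6 CPM. The 3 genes are close relatives: Mir467c and Mir467e share a stretch of 48 bases, and each shares 34 bases with Mir467d.

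The detected Mir669 genes lay lower. Mir669c, at 10509296 to 10509404, had 194 and 148 counts, or 80.02 and 53.4 CPM. Mir669o, at 10514300 to 10514395, had 157 and 149 counts, or 64.8 and 53.8 CPM. Mir669l, at 10468971 to 10469068 near the 5′ end of the array, had 46 and 27 counts, or 19.0 and 9.75 CPM. Mir669c and Mir669o share 27 bases, and Mir669l shares 20 with Mir669o and 15 with Mir669c. With Mir467c, Mir669l shares 22 bases, more than with Mir669o or Mir669c. Just under the minimum stood Mir669e with 14 and 4 counts, and below it Mir669h with 2 and 2, Mir297a-2 with 2 and 0 and Mir466n with 0 and 1.

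**Figure D2:**
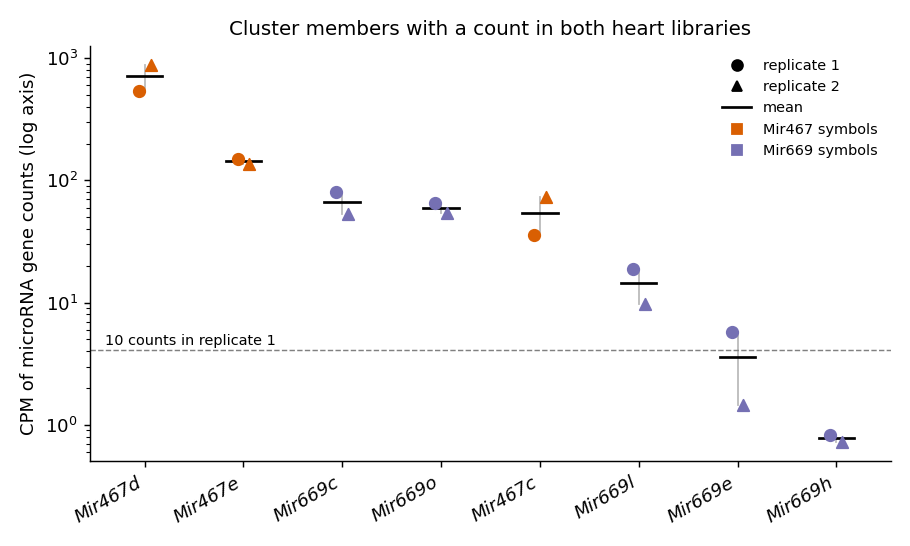
CPM (log axis) of the 8 members with a count in both libraries; circles are replicate 1, triangles replicate 2, black bars the mean, and the dashed line marks 10 counts in replicate 1. Mir467d sits between 535 and 884 CPM, above every other member in both libraries.

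In order of mean level, both values of Mir467d lay above those of Mir467e, and both values of Mir467e (144 ± 9.50 CPM) lay above those of the next members. Mir669c (66.7 ± 18.8 CPM), Mir669o (59.3 ± 7.76) and Mir467c (54.2 ± 25.9) overlapped between the libraries, so their order was not resolved. Mir669l (14.4 ± 6.52 CPM) lay below all of these in both libraries. Per 100 bases of hairpin the mean levels were 835 CPM for Mir467d, 166 for Mir467e, 61.2 for Mir669c, 61.7 for Mir669o, 55.9 for Mir467c and 14.7 for Mir669l, which exchanges only Mir669c and Mir669o. Each value counts reads that could be placed at that hairpin alone, so a member's reads from bases shared with a copy are not in it.

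The whole cluster held 2166 counts in replicate 1 and 3361 in replicate 2, or 0.0893% of own-strand counts (95% exact Clopper-Pearson interval 0.0856 to 0.0932) and 0.121% (0.117 to 0.125). Mir467d made up 59.9% of the cluster in replicate 1 and 72.8% in replicate 2. Mir467e made up 16.9% and 11.3%. Without Mir467d the cluster summed to 358 CPM in replicate 1 and 330 CPM in replicate 2, so the higher sum in replicate 2 rests on that gene. The Mir467 genes together held 80.8% (79.1 to 82.5) and 90.2% (89.1 to 91.1) of the cluster's counts. The Mir669 genes held 19.1% (17.4 to 20.8) and 9.82% (8.83 to 10.9).

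**Figure D3:**
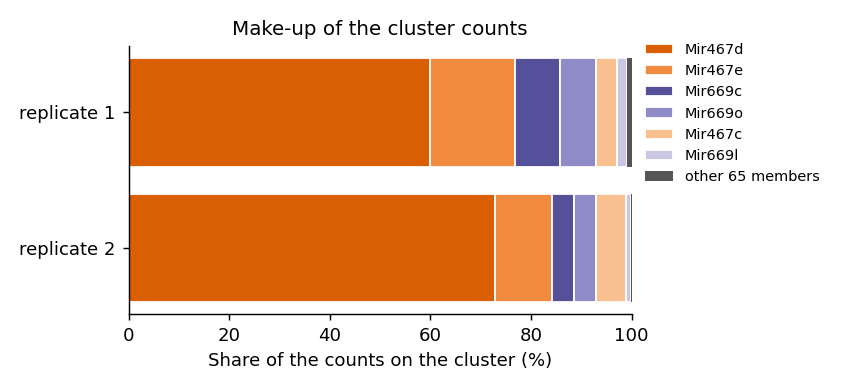
Share of the cluster's own-strand counts (%, from 0 to 100) held by each detected member and by the other 65 members, for each library. Mir467d holds 59.9% in replicate 1 and 72.8% in replicate 2.

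To see how much of each member is its own, each hairpin was read in windows of 22 bases, about the length of a mature microRNA. A window was taken as the hairpin's own if it occurred, on either strand, in no annotated hairpin at another locus. The rest of the genome was not searched, and reads of other lengths or with mismatches were not modelled, so this count describes the hairpins and not the placing of reads. At least 1 such window was found in 39 of the 71 members, and in 1905 of all 2202 microRNA genes. The 32 members without one had 0 counts in both libraries. They are all 10 Mir467a genes, 11 of the 12 Mir669a genes, both Mir669p genes, 6 of the 8 Mir466b genes, Mir466c-1, Mir466c-2 and Mir466e. For these genes a count of 0 does not give the level of the mature microRNA, since reads of 22 bases from them match another hairpin exactly. The lack of such a window did not always go with 0 counts: Gm23935 (25 and 58 counts), Gm24270 (4 and 8) and Gm47295 (2 and 1), none of them a member, had none and were counted.

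The counts were also set out by position, with borders at Mir467c and Mir467e. Both are detected members with no counted member between them, so the empty middle stretch reflects this choice of borders. Between Mir467c and Mir467e lie 38 members over 31.7 kb, none with a count, and 31 of them had no window of their own. The 7 with such a window in that stretch were Mir669a-3, Mir669k, Mir669g, Mir669j, Mir467b, Mir466b-2 and Mir466b-3. The 13 members from Mir466m to Mir467c at the 5′ side all had a window of their own, and 2 were detected, with 149 and 232 counts over the 13. The 20 members from Mir467e to Mir669h at the 3′ side included 19 with such a window and 4 detected genes, with 2017 and 3129 counts. The counts at the 3′ side were thus far above those at the 5′ side in both libraries, and most were Mir467d's.

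Hairpins with their own bases were not all counted. Among the 39 members with a window of their own 6 were detected, or 15.4%, beside 16.0% of all genes with such a window. Among the 15 members with more than 50% own windows 5 were detected, or 33.3%, against 19.3% of the 1574 genes of that kind in the tables. Mir466g, all of whose 59 windows were its own, had 0 counts in both libraries. Mir466h (96.7% own windows), Mir669b (89.5%), Mir466l (89.0%), Mir669i (75.5%), Mir669f (53.0%) and Mir466f-1 (50.7%) also had 0. For these 7 genes the limit is 1.24 and 1.08 CPM, as far as reads fell in their own windows. The tables give no arm, so which window the reads of a gene came from is not known.

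The detected members differed in how much sequence was their own. Mir467d had 25 own windows of 64, or 39.1%, of which 19 began in the first 32 windows and 6 in the second 32, and it shared a stretch of 60 bases with Mir467a-2. Own windows made up 53.2% in Mir669l, 58.7% in Mir669o, 59.1% in Mir467e, 63.2% in Mir467c and 83.0% in Mir669c. Of the 8 detected genes with the lowest such share, among 306, 6 were members of the cluster, a comparison chosen after the values were seen. The other two were Gm23935, with 0% own windows, and n-TSaga9, with 72.1%.

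**Figure D4:**
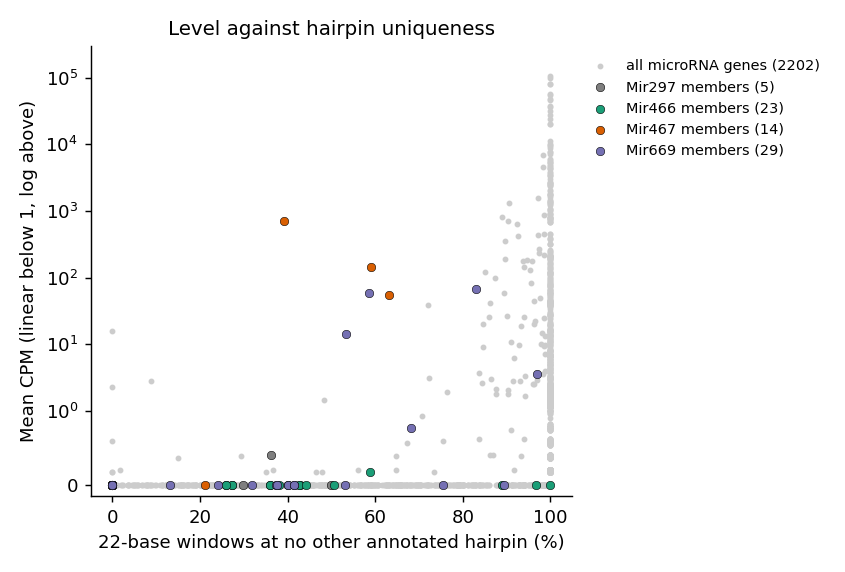
Mean CPM over 2 libraries (linear below 1, logarithmic above) against the percent of 22-base windows at no other annotated hairpin; grey points are all 2202 microRNA genes and coloured points the 71 members. Mir467d, at 39.1% own windows and 710 CPM, lies above all other genes with less than 50%.

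None of the 71 members had a read on the opposite strand in either library, and own-strand and either-strand counts were equal for all 71. No member overlaps another microRNA gene. Over all microRNA genes the opposite-strand column held 518587 and 806623 counts. Only 24 of the 306 detected genes had a count in it, so having none is common and not particular to the members.

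Genes with related symbols elsewhere had few or no counts. Of the 10 Mir466, Mir467, Mir669 and Mir297 genes outside Sfmbt2 none was detected, and Mir466q on chromosome 3 was the only one with a count (1 and 2). All 10 had a window of their own. Of the 48 other microRNA genes in Sfmbt2 none was detected, with 1 count for Gm22072 in replicate 1 and 1 for Gm24806 in replicate 2, and 26 of them had a window of their own.

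The level of the cluster was set beside other imprinted or tandem microRNA genes. The Dlk1-Dio3 domain, an imprinted microRNA cluster of chromosome 12, had 34 of 67 genes detected and 3281 and 3665 CPM in sum, led by Mir127 (730 and 1427 CPM) and Mir411 (403 and 506 CPM). The Sfmbt2 cluster summed to 893 and 1213 CPM of reads placed once, below that in both libraries. In the Dlk1-Dio3 domain 66 of the 67 genes had a window of their own, against 39 of the 71 members of the Sfmbt2 cluster. Reads that mapped to several places are in no sum, so the sums do not compare the full levels of these clusters. Of 5 imprinted genes elsewhere 4 were detected, with Mir335 at 960 and 635 CPM and Mir298 at 209 and 86.6 CPM, and their sum (1245 and 823 CPM) overlapped that of the Sfmbt2 cluster. The X-linked tandem cluster around Mir743 and Mir465, known from testis, had 0 of 19 genes detected and summed to 4.54 and 3.61 CPM. Its highest genes were Mir470 with 4 and 8 counts and, level with each other, Mir471 and Mir743 with 2 and 1 each.

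The 2 libraries were compared to learn how far the members' levels held from one to the other. Mir467c was 2.02-fold higher in replicate 2 (95% exact interval 1.56 to 2.63) and Mir467d 1.65-fold higher (1.54 to 1.77). Lower in replicate 2 were Mir669l, at a ratio of 0.514 to replicate 1 (0.307 to 0.844), and Mir669c, at a ratio of 0.668 (0.535 to 0.831). Adjusted p by the two-sided exact binomial test with Benjamini-Hochberg adjustment over 306 genes was 2.1e-49 for Mir467d, 4.3e-08 for Mir467c, 0.00048 for Mir669c and 0.012 for Mir669l. Mir467e (ratio 0.911, interval 0.787 to 1.05, adjusted p = 0.28 by the same exact test) and Mir669o (ratio 0.831, 0.659 to 1.05, adjusted p = 0.16) did not pass it. This compares 2 libraries and no condition.

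Of the 6 members tested 2 were thus higher and 2 lower in replicate 2 beyond counting error, while 19.6% of the 306 detected genes were higher and 41.5% lower by the same rule, 61.1% in all. With a difference of at least 1.5-fold besides, 2 members were higher and 1 lower, against 11.1% higher and 25.5% lower of all detected genes, 36.6% in all. The median log2 ratio was -0.20 over the 6 members and -0.19 over all 306 genes, and folds are not corrected for it. With edgeR's TMM factors or DESeq2's size factors Mir467e turned to slightly higher in replicate 2 (log2 ratio 0.04 and 0.06). With DESeq2's factors the adjusted p of Mir669l was 0.058 by the same exact test. With edgeR's exact test, whose common dispersion counts the difference of these libraries as spread, 0 of the 6 members and 2 of the 306 genes passed.

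**Figure D5:**
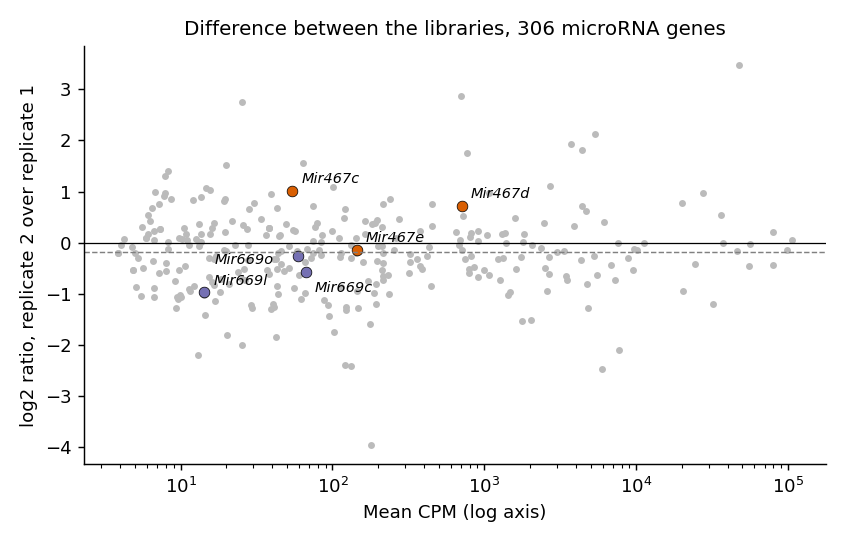
Log2 ratio of replicate 2 over replicate 1 against mean CPM (log axis) for the 306 detected microRNA genes; coloured points are the 6 detected members (orange Mir467, purple Mir669), the solid line is 0 and the dashed line the median of all genes. Mir467c and Mir467d lie above 0 and Mir669l and Mir669c below it, all within the spread of the other genes.

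Ratios within the cluster do not depend on the scaling of the libraries. The Mir467 genes had 4.24 counts for each count of the Mir669 genes in replicate 1 (3.81 to 4.73, exact 95% interval) against 9.18 in replicate 2 (8.19 to 10.3), a 2.17-fold difference with intervals that do not overlap. Mir467d had 3.55 counts for each of Mir467e in replicate 1 (3.16 to 3.99) and 6.43 in replicate 2 (5.77 to 7.18). Mir467e had 4.21 counts for each of Mir467c in replicate 1 (3.32 to 5.38) and 1.90 in replicate 2 (1.59 to 2.26). The Mir467 genes thus did not keep fixed proportions from one library to the other. Mir669c and Mir669o had nearly equal counts in both, with ratios of 1.24 (0.996 to 1.53) and 0.993 (0.786 to 1.26). Mir669o had 3.41 counts for each of Mir669l in replicate 1 (2.44 to 4.85) and 5.52 in replicate 2 (3.64 to 8.65), with intervals that overlap. Red cell markers also differed between the libraries, with Mir451a and Mir144 together at 0.978% of counts in replicate 1 and 9.37% in replicate 2 and both present in each. Markers of other cells differed too, in both directions. Among cardiac muscle markers Mir208a was higher in replicate 2 (ratio 3.80) while Mir499 (0.607) and Mir208b (0.468) were lower. Of the leukocyte markers Mir223 (0.191), Mir142 (0.647) and Mir150 (0.704) were lower in replicate 2, while Mir155 was near even (0.971). Both smooth muscle markers were lower, Mir145a (0.512) more than Mir143 (0.893). Among endothelial markers Mir222 (0.549) and Mir221 (0.877) were lower, while Mir126a, the most abundant, was higher (1.16). All of these markers but Mir155 (adjusted p = 0.18) passed the same exact test. The part of these cells in the members' differences was not tested.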

How the data were processed

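Per the text deposited with the tables, small RNA reads had been placed on mm10 and counted by the authors against GENCODE M21; for the aligner, the counter and trimming nothing is given in the sources used here. Raw, unnormalized counts per gene were deposited in 3 columns (either strand, own strand, opposite strand) recognised from their values. The 4 lines that name no gene (70.0% and 65.3% of reads in the own-strand column) stayed out of totals. Positions and hairpins came from GENCODE M21, and all 2202 identifiers matched.

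CPM are own-strand counts over their library total. For each gene the libraries were compared by an exact binomial test, two-sided, on their totals, Benjamini-Hochberg adjusted at 0.05 over genes with at least 10 counts in both. Shares carry 95% exact Clopper-Pearson intervals and a count of 0 a limit of 3 counts; without molecular identifiers these cover counting error only. Named genes are the detected members, the other members with counts, the microRNA genes of another symbol in Sfmbt2 (of these only those with a count are printed), detected genes of the same families outside it, and the 2 most abundant genes of each comparison list; Mir466q and those named for own windows or for 0 counts were added after their values were seen. The members and lists were chosen with earlier results of these data known. Mir292a of the stem cell list matched no symbol. The test and the window search were tested on simulated data. Alternatives were other count minimums, the either-strand column, TMM and DESeq2 factors, an edgeR exact test, other denominators, other windows and each library alone. Python 3.11.15 (numpy 2.4.6, pandas 2.3.3, scipy 1.17.1, matplotlib 3.10.9) and R 4.3.3 (edgeR 4.0.16, DESeq2 1.42.0) were used.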

Additional observations from a re-analysis of the deposited data

Results flagged for a closer look

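Reads that mapped to several places are data outside the comparisons made here. They numbered 3992614 (replicate 1) and 3410568 (replicate 2), where the limit for a count of 0 is 3. The tables do not say which of them came from the Sfmbt2 cluster, and the 2166 and 3361 counts of the cluster hold none of them. Their part in the low counts of the members was not tested.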

How the results depend on the processing

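The number of detected members was 6 with a minimum of 5 or 20 counts or with the either-strand column, 8 with a minimum of 1 count, and 6 to 7 with either library alone. The cluster's share of counts (0.105% ± 0.0226) was 0.142% with the either-strand column, 0.0441% with multiply mapped reads added to the denominator, 0.299% without the 10 most abundant genes in it, and 0.0344% without Mir467d; the first 3 follow from the denominators. It was 0.0893% to 0.121% with either library alone. The 4 members that differed between the libraries (3 of them by at least 1.5-fold) were 3 to 5 (2 to 4 by at least 1.5-fold) under other scalings, filters and the either-strand column. They were 0 and 0 in an edgeR exact test with a common dispersion over all genes (coefficient of variation 0.383), with 0 at an unadjusted p under 0.05. Of all 306 genes 2 passed after adjustment and 17 at an unadjusted p under 0.05. That dispersion is itself taken from the difference of these 2 libraries. The log2 ratio of Mir467e, not called in any fit, was -0.13, and turned to 0.0397 with TMM factors, 0.0579 with DESeq2 factors and 0.0148 with the either-strand column. Of 30 alternative levels of single members 4 moved by more than 1 SD, each with the either-strand column. The 30 include each library alone, which could not move by this rule. With 2 libraries each value always lies within 1 SD of their mean, so those alternatives say nothing on stability. Over all genes, calls of at least 1.5-fold split into 34 higher and 78 lower with library totals, 47 and 49 with TMM factors and 48 and 48 with DESeq2 factors. Members with a window of their own numbered 39 with windows of 18 or 20 bases or on 1 strand alone and 40 with 25 bases. The planned counts of exact matches of mature sequences were not run, and windows of hairpins, chosen after seeing the data, took their place. Leaving out Mir467d was also added then. Depth limits members at 0 counts to statements below about 1.24 CPM for reads placed once. No paired analysis was possible because the labels give 1 group.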
